A study of Equus caballus with 24 samples.

Results

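The adult long bone comparison set the end of the long bone of 3 adult Debao ponies (DPs) against that of 3 adult Mongolian horses (MHs). It was chosen by tissue and age, and it used 6 of the 24 libraries of the study, DPLBA1 to DPLBA3 from DPs and MHLBA1 to MHLBA3 from MHs, with every gene in the deposited table. The study sequenced total RNA, depleted of ribosomal RNA, from the pituitary and the long bone epiphysis of both breeds at a juvenile and an adult stage, with 3 female horses in each of its 8 groups. All animals were healthy, were killed at a slaughterhouse, and carried no treatment or engineered allele. The DP is a small pony breed and the MH a taller horse breed, and the comparison asks which transcripts differ between their bones once growth has ended. The labels name neither the bone nor the limb from which a sample was cut.

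The epiphysis is the rounded end of a long bone. It holds spongy bone made by osteoblasts and remodelled by osteoclasts, a cap of hyaline cartilage made by chondrocytes, and marrow in which blood cells or fat cells fill the spaces. In the growing animal growth hormone from the pituitary acts on the growth plate directly and through insulin-like growth factor, and in the adult the plate has closed and red marrow gives way to fat in parts of the skeleton. RNA from such a sample is a mixture of these cells, so that fewer cells of a type and less RNA in each of its cells cannot be told apart.

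The 6 libraries held 11616518 to 27007342 gene reads each. Bone transcripts were present in every library: SPP1, which encodes the bone matrix protein osteopontin, ran from 2459 to 22187 CPM (reads of a gene scaled to a common library total, here with TMM factors for library composition), and CTSK, which encodes the collagen-cutting protease of osteoclasts, from 100.2 to 1334 CPM. COL2A1, which encodes the main collagen of hyaline cartilage, stood at 5555, 38.5 and 15329.6 CPM in DPLBA1 to DPLBA3 and at 1232, 8.13 and 1.28 CPM in MHLBA1 to MHLBA3. DPLBA2, MHLBA2 and MHLBA3 held little of it, while COL11A2, another collagen of cartilage, was at 846, 260.4 and 137 CPM in those libraries.

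Each MH library also held transcripts of another organ. In MHLBA1, 12 genes of the exocrine pancreas summed to 154828 CPM of all reads, without further scaling, against at most 19.1 in each other long bone library, and 73 genes that were more than 20 times higher there than in each other long bone library took 39.7% of its reads. They included PNLIP, which encodes pancreatic lipase, CPB1, which encodes a pancreatic carboxypeptidase, and GCG, which encodes glucagon. In MHLBA2, 25 liver genes summed to 8563 CPM against 164 to 468 elsewhere, with ALB, which encodes serum albumin, at 2525. In MHLBA3, 17 kidney genes summed to 122 CPM against 5.50 to 21.4 elsewhere, and 27 genes of striated muscle summed to 907 against 30.2 to 104 in the other 5 adult libraries and 1046 in the juvenile MHLBJ1. The plot of organ transcripts by library shows that none of the DP libraries reached these pancreas, liver, kidney or muscle sums. In the same plot, 8 pituitary hormone genes summed to 68.8 CPM in DPLBA3, against at most 7.11 in each other adult library. Of the genes tested between the breeds, 3 of 3 exocrine pancreas genes, 10 of 13 liver genes, 2 of 5 kidney genes and 8 of 22 striated muscle genes were called lower in DPs and none was called higher. The organ genes were picked after seeing the data, so these counts restate the organ transcripts and are no separate result. Breed differences in genes made in those organs have to be read with these transcripts in mind. How these transcripts came into the libraries was not tested. In DPLBA2, 21 genes had at least 100 reads there and at most 3 in each of the other 23 libraries. Among them were LAMA4 with 6025 reads, USO1 with 5702 and NIPBL with 4375. None of these 21 was tested. By the same rule MHLBA1 had 9 such genes and the juvenile MH pituitary library MHPJ2 had 2.

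**Figure D1:**
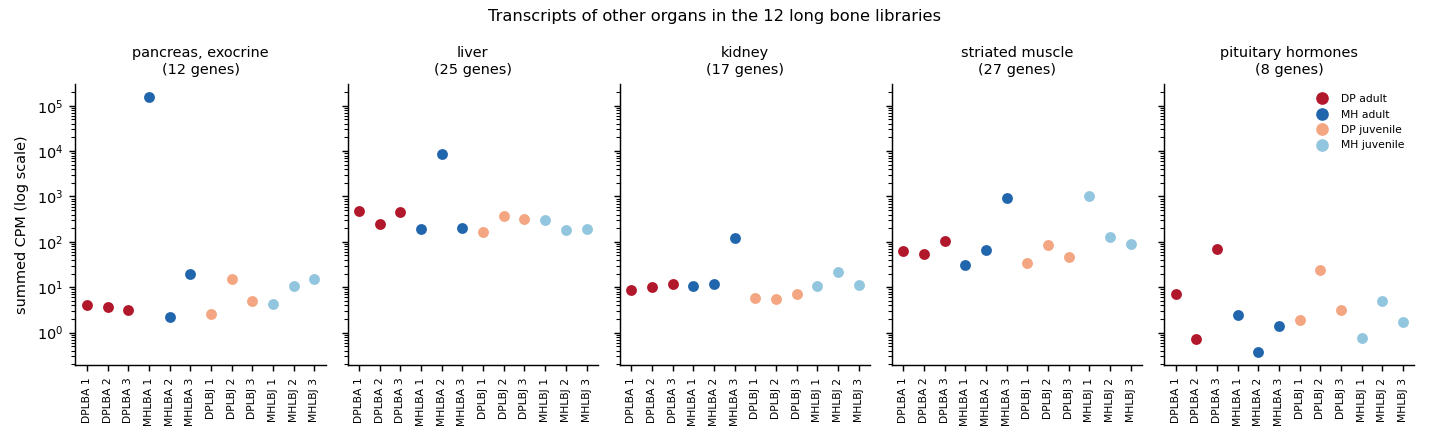
Summed CPM of all reads of the marker genes of organs (log axis) in each of the 12 long bone libraries, with 1 point per library. The exocrine pancreas sum reaches 154828 in MHLBA1, the liver sum 8563 in MHLBA2 and the kidney sum 122 in MHLBA3, while the other adult libraries stay at or under 19.1 for the pancreas and 468 for the liver. The pituitary hormone sum is highest in DPLBA3, at 68.8.

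A gene was called here when its unadjusted P was under 0.05 and its fold change over 2, the thresholds of the study, in edgeR's quasi-likelihood test. Of 14073 genes tested, 1450 (10.3%) were called higher in DPs and 1130 (8.03%) lower. The counts called in each gene list below have to be read against these shares. After Benjamini-Hochberg adjustment 315 genes (2.24%) had an adjusted p under 0.05, of which 245 were higher in DPs and 70 lower. That count fell to 0 without DPLBA1, without DPLBA3 or without MHLBA2 and to 4 without DPLBA2, so the adjusted p-values given here hold for the 6 libraries together. The CPM of the breeds did not overlap for 4209 genes (29.9%), which with 3 samples against 3 is the share against which any such gene has to be read. The smallest 2-sided p that an exact permutation test can give in this design is 0.1, so single values below are given with the edgeR fit across all genes. Fold changes are given as log2, DP minus MH, with the standard error (SE).

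Genes of maturing neutrophils were higher in DPs. MMP8, which encodes the collagenase of neutrophil granules, was at 30.2, 22.8 and 36.6 CPM in DPs and at 3.48, 3.11 and 2.49 CPM in MHs, so that every DP library exceeded every MH library. Its log2 fold change was 3.30 ± 0.34 (adjusted p = 0.0206 in edgeR's test). CSTA, which encodes a cysteine protease inhibitor, was at 32.6, 50.6 and 32.6 CPM in DPs and 1.65, 1.33 and 1.71 CPM in MHs, and had the lowest p among the genes named here (4.63 ± 0.35, adjusted p = 0.0176). PADI4, the enzyme that citrullinates histones in neutrophils, was at 39.4, 26.2 and 56.7 CPM against 1.74, 0.615 and 0.641 CPM (5.39 ± 0.56, adjusted p = 0.0206). LYZ, which encodes lysozyme, was at 569, 348 and 201 CPM against 35.8, 6.43 and 5.35 CPM (4.56 ± 0.86, adjusted p = 0.043). None of these groups overlapped, and in LYZ the highest MH library was MHLBA1.

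The 12 highest named genes were ordered by fold change among genes with a symbol, an adjusted p under 0.05, groups without overlap and a mean of at least 10 CPM in the higher breed. Those 12 were PI3, RETN, SERPINB10, PADI4, GPR97, GAPT, ECATH-3, SLC43A3, CSTA, NAPSA, LYZ and PHOSPHO1. PI3, which encodes an inhibitor of neutrophil elastase, had 8.58, 13 and 33.2 CPM in DPs and 0.348, 0 and 0 CPM in MHs (7.64 ± 1.24, adjusted p = 0.0333). RETN, which encodes resistin, had 23.1, 16.9 and 17 CPM against 0.435, 0.273 and 0 CPM (6.30 ± 0.79, adjusted p = 0.0223). ECATH-3 encodes an antimicrobial cathelicidin of the horse, and stood at 31.5, 19.7 and 20.2 CPM against 1.57, 0.684 and 0.57 CPM (4.69 ± 0.51, adjusted p = 0.0206). The MH levels of PI3 and RETN lay near 0, which makes the size of their fold changes depend on few reads.

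Of 27 tested members of the list of neutrophil granule and oxidase genes, 22 were called higher in DPs and 1 lower, with a median log2 fold change of 3.30 against -0.0348 over all genes tested. The 14 members with an adjusted p under 0.05 included CYBB, which encodes the catalytic subunit of the oxidase that makes superoxide. It stood at 55.8, 31.3 and 26.6 CPM in DPs and 2.61, 3.08 and 2 CPM in MHs (3.88 ± 0.41, adjusted p = 0.0206). The member called lower was CHI3L1, which chondrocytes and macrophages also make, at 22.5, 26 and 40.8 CPM in DPs and 118, 46 and 75.5 CPM in MHs. CTSC, the protease that activates granule enzymes, was not called (276, 296 and 306 CPM against 77.9, 248 and 167 CPM). Leaving out any of the 6 libraries left 21 to 24 members called higher and 1 lower. With MHLBA3, the MH library without the pancreas or liver sums, as the lone MH library, 23 were higher.

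Genes of dividing cells were higher in DPs with them. Of 42 tested genes of the cell cycle and DNA replication list, 33 were called higher and none lower (median 2.39), and 10 had an adjusted p under 0.05. MYBL2, a transcription factor of cycling cells, was at 30.9, 28.8 and 20.3 CPM in DPs and 2.52, 3.45 and 2 CPM in MHs (3.31 ± 0.37, adjusted p = 0.0206). E2F8 stood at 7.5, 10.7 and 6.74 CPM against 0.87, 1.3 and 0.855 CPM (3.02 ± 0.45, adjusted p = 0.029). The groups did not overlap in either gene. RRM1, a subunit of ribonucleotide reductase, was not called and had a log2 fold change of 0.01 ± 0.23.

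Of 23 tested monocyte and macrophage genes, 14 were called higher in DPs and none lower (median 1.6). They included C1QC, a complement chain that macrophages make, at 119, 54.3 and 99 CPM against 9.22, 22.7 and 19.9 CPM (2.39 ± 0.44, adjusted p = 0.0418), and CD5L, an apoptosis inhibitor that macrophages secrete, with 3.12 ± 0.40. Of 21 tested B and plasma cell genes, 11 were higher and none lower, and of 13 megakaryocyte and platelet genes 9 were higher and none lower. BTK, the kinase of the B cell receptor, was at 31.6, 29.1 and 22.3 CPM against 6.87, 5.5 and 2.28 CPM (2.50 ± 0.45, adjusted p = 0.0402). PPBP, a platelet chemokine, was at 10.6, 7.33 and 3.86 CPM in DPs and at 0.348, 0 and 0 CPM in MHs.

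EPX, the peroxidase of eosinophils, was at 367, 195 and 284 CPM in DPs and 14.9, 0.0684 and 0.927 CPM in MHs. The groups did not overlap, and the MH libraries spread so widely that the adjusted p was 0.0847 in edgeR's test with a log2 fold change of 5.77 ± 1.52. Of 7 tested genes of eosinophils, basophils and mast cells, 4 were higher and none lower. FLT3, a receptor of early progenitors, was at 19.6, 19.6 and 10.3 CPM against 3.05, 2.43 and 2.21 CPM (2.69 ± 0.40, adjusted p = 0.0292), while 3 of the 16 tested stem and progenitor genes were higher and 3 lower, among them MEIS1, whose level was raised in MHLBA1 alone. MECOM, a regulator of blood stem cells, was among the lower at 26.2, 23.7 and 16.7 CPM against 52.6, 43.6 and 98.2 CPM (-1.54 ± 0.37, adjusted p = 0.0706).

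Of 32 tested T and NK cell genes, 5 were called higher (15.6%, against 10.3% of all genes tested) and none lower. CD4 was among them, at 26.1, 20.4 and 18.9 CPM against 7.92, 8.13 and 6.63 CPM (1.53 ± 0.30, adjusted p = 0.0451). CD3E, a chain of the T cell receptor complex, was not called and had a log2 fold change of 0.27 ± 0.39. Without DPLBA3, 3 T and NK cell genes were higher. Of 25 tested erythroid genes, 4 were higher (16%) and 2 lower (8%), with a median of 0.33. NFE2, a transcription factor of red cell and platelet precursors, was at 10.1, 7.99 and 10.9 CPM against 2, 0.786 and 0.499 CPM (3.16 ± 0.59, adjusted p = 0.0422). HBB, which encodes the adult beta globin chain, was at 126 CPM in DPLBA2 and at or under 3.78 CPM in each of the other adult libraries, and was not called.

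**Figure D2:**
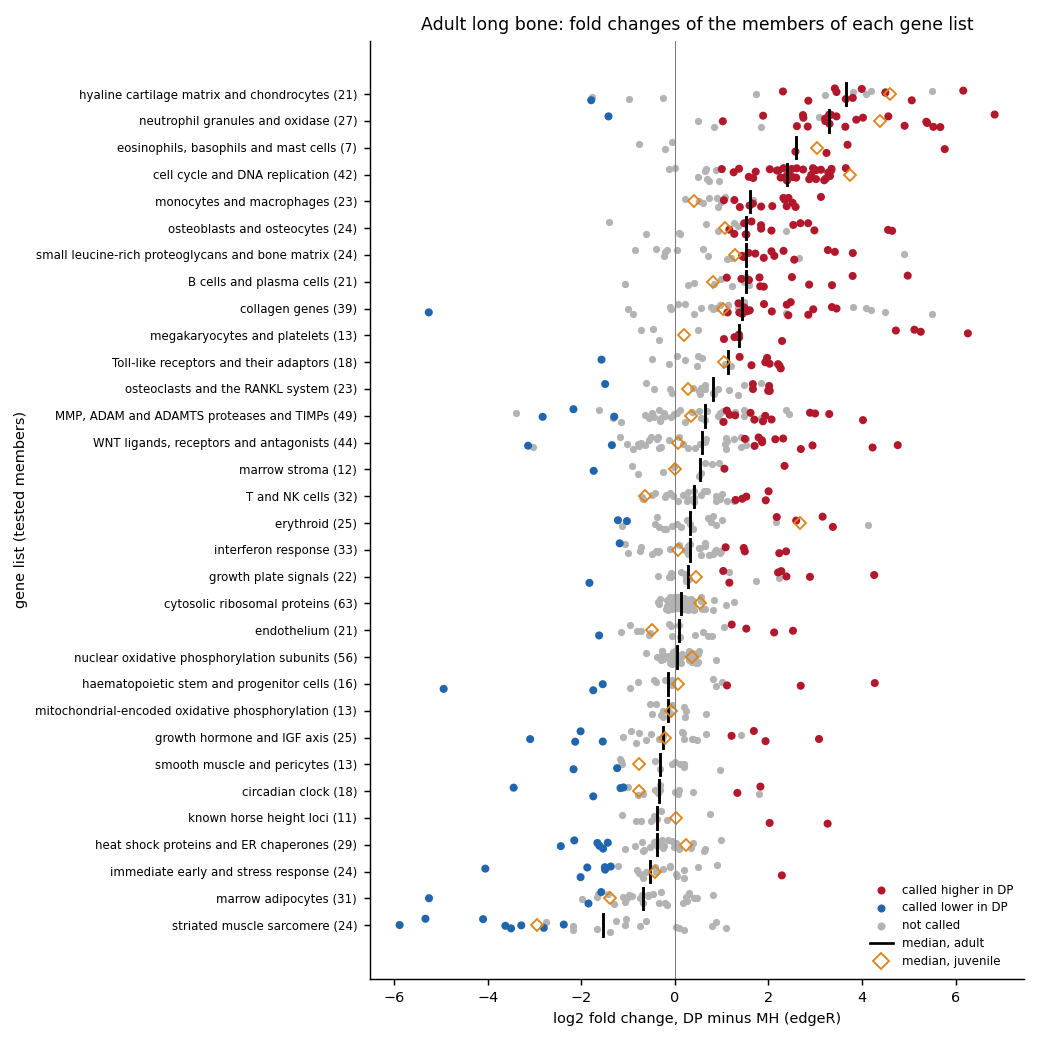
Log2 fold change (DP minus MH, adult long bone) of each tested member of the gene lists, with 1 point per gene, coloured by its call, a bar at the list median and an open diamond at the juvenile median. The medians of the cartilage (3.65) and neutrophil (3.30) lists lie farthest above 0, and that of the striated muscle list (-1.53) farthest below.

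Genes of the bone-forming cells were higher in DPs as well. Of 24 tested osteoblast and osteocyte genes, 15 were called higher and none lower (median 1.52), and 2 had an adjusted p under 0.05. The log2 fold change was positive in 22 and negative in 2, BGLAP, which encodes osteocalcin (-1.42), and FGF23 (-0.62), neither of them called. RUNX2 was at 0.09 and was not called. PHOSPHO1, the phosphatase that starts mineral deposition in matrix vesicles, was at 34.4, 151 and 190 CPM in DPs and 2, 10.6 and 3.06 CPM in MHs (4.56 ± 0.86, adjusted p = 0.0422). IFITM5, a membrane protein of mineralising osteoblasts, was at 15.6, 31.2 and 19.1 CPM against 0.957, 3.18 and 4.13 CPM (2.98 ± 0.57, adjusted p = 0.0434). SP7, the transcription factor osterix, was at 28.3, 97.2 and 109 CPM against 3.57, 17.1 and 11.8 CPM, and its adjusted p was 0.0701 (2.85 ± 0.68). The breeds did not overlap in any of these genes, although DPLBA1 lay well below the other DP libraries in PHOSPHO1 and SP7. The number of osteoblast genes called higher fell to 8 without DPLBA3 and to 10 without MHLBA3.

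COL1A2, which encodes the alpha-2 chain of type I collagen, was at 8765, 64532 and 25069 CPM in DPs and at 2318, 14436 and 2267 CPM in MHs, so that MHLBA2 exceeded DPLBA1. Its log2 fold change of 2.37 ± 1.11 did not pass the test (adjusted p = 0.237 in edgeR's test), but COL1A2 was called higher in 8 of 18 alternative settings, among them DESeq2, both limma fits and the fit without MHLBA2. No row carried the symbol COL1A1, the partner chain. FAM117A had the highest mean RPKM in DPs, and its CPM followed those of COL1A2 at 8780.2, 96931 and 31226 in DPs and 3102, 22418 and 3500.4 in MHs (2.24 ± 1.21, adjusted p = 0.297). Whether all reads counted under this symbol came from that gene was not tested.

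Among collagens and bone matrix proteins, 16 of 39 tested collagen genes were called higher and 1 lower, and 12 of 24 genes of the small leucine-rich proteoglycan and bone matrix list were higher and none lower. COL8A2 stood at 34.2, 54.1 and 43 CPM against 3.57, 14.5 and 5.27 CPM (2.48 ± 0.54, adjusted p = 0.058), and no collagen had an adjusted p under 0.05. LOXL2, an enzyme that cross-links collagen, was at 30.6, 56.5 and 49.3 CPM against 8.7, 7.9 and 10.7 CPM (2.32 ± 0.32, adjusted p = 0.0232). Without DPLBA2 the collagens came to 10 higher and 3 lower, and the second list to 6 higher and 3 lower.

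Of 23 tested genes of osteoclasts and of the RANKL system that forms them, 5 were called higher and 1 lower. TNFSF11, the ligand RANKL, was at 36.2, 38.6 and 29.8 CPM against 12.4, 14.3 and 6.27 CPM (1.67 ± 0.36, adjusted p = 0.0576). ACP5, which encodes tartrate-resistant acid phosphatase, was at 562, 1273 and 1167 CPM against 184, 934 and 53.7 CPM, and the breeds overlapped because of MHLBA2. Leaving MHLBA2 out raised the number called higher to 12. It was 5 without MHLBA1, 4 without DPLBA2, and 3 without DPLBA1, without DPLBA3 or without MHLBA3. With MHLBA3 alone on the MH side the list median was 2.65, against 0.811 with all 6 libraries. The member called lower was FOS, at 13, 38.2 and 19.1 CPM in DPs and 80.2, 73.2 and 44.5 CPM in MHs, which is also an immediate early gene.

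Cartilage genes had the highest list median, 3.65 over 21 tested genes, with 10 called higher and 1 lower. FMOD, which encodes the collagen-binding proteoglycan fibromodulin, was at 299, 192 and 502 CPM in DPs and 42.7, 25.3 and 24.8 CPM in MHs (3.42 ± 0.45, adjusted p = 0.0223). CHAD, which encodes chondroadherin, was at 1842, 483 and 1360.4 CPM against 97.7, 146 and 20.3 CPM (3.80 ± 0.82, adjusted p = 0.0571). In both genes every DP library exceeded every MH library, including DPLBA2, which had little COL2A1. COL2A1 itself did not pass the test (4.08 ± 2.49, adjusted p = 0.355). Without MHLBA1, whose COL2A1 was the highest of the MHs, 17 cartilage genes were higher and 2 lower. Leaving out MHLBA2 gave 7 higher and 3 lower. The number higher was 8 without DPLBA1, without DPLBA3 or without MHLBA3, and 11 without DPLBA2.

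SOX5, a transcription factor of chondrocytes that also acts in other cells, was the cartilage gene called lower. It stood at 31.8, 28.1 and 29.5 CPM in DPs and at 122, 95.4 and 92.2 CPM in MHs, with narrow spread in both breeds (-1.79 ± 0.24, adjusted p = 0.0231). The plot of marrow and bone genes sets these members beside each other by library.

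**Figure D3:**
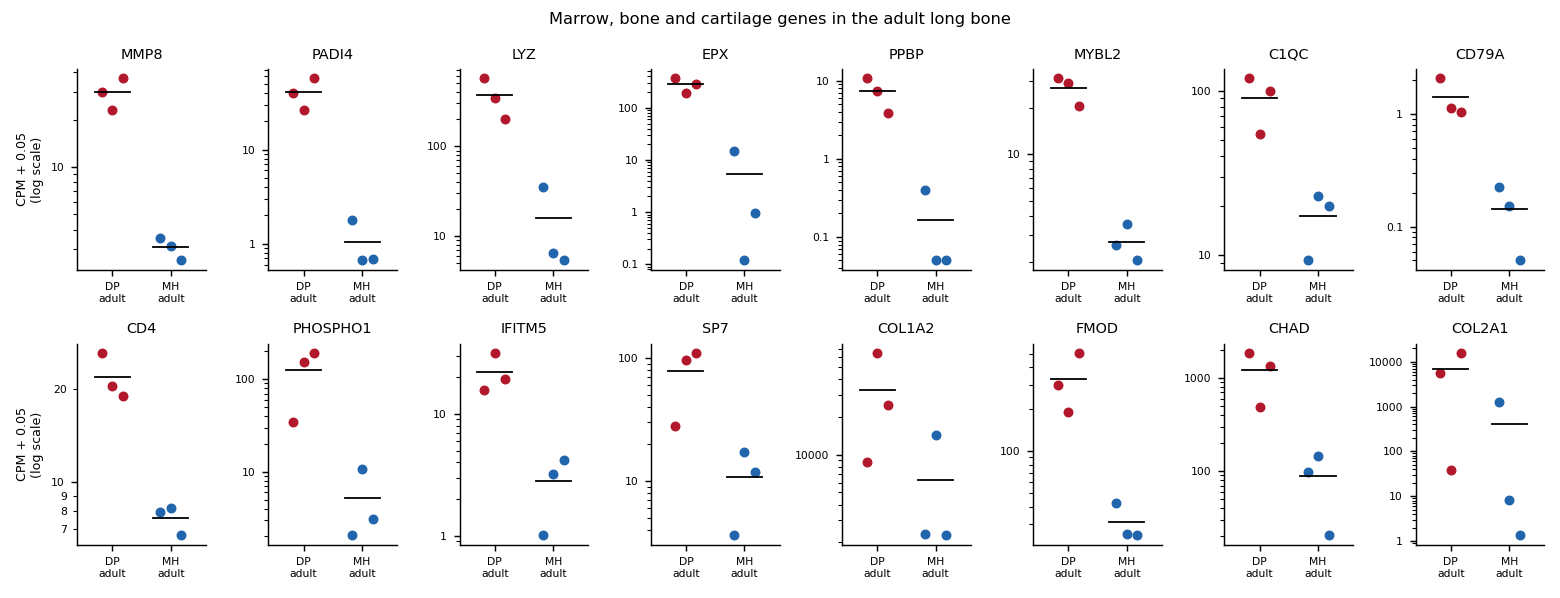
CPM plus 0.05 (log axis, so that 0 can be drawn) of marrow, bone and cartilage genes in each adult long bone library, with 1 point per library and a bar at each breed mean. The 3 DP points lie above the 3 MH points for MMP8, MYBL2 and PHOSPHO1, while those for COL2A1 overlap.

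A set of limb-position genes, singled out after their values were seen, separated the breeds. TBX5, the T-box factor expressed in the forelimb, was at 11.5, 12.8 and 24.3 CPM in DPs and 0.174, 1.5 and 1.85 CPM in MHs (3.75 ± 0.75, adjusted p = 0.0498). PITX1, the homeobox factor expressed in the hindlimb, was at 0.114, 0.467 and 0.874 CPM in DPs and 4.79, 12.4 and 7.13 CPM in MHs (-4.04 ± 0.76, adjusted p = 0.0422). Each DP library thus had more TBX5 than PITX1, and each MH library more PITX1 than TBX5, compared as RPKM, which is corrected for gene length. TBX4, the T-box factor of the hindlimb, was at 1.72, 3.55 and 2.67 CPM against 1.57, 4.82 and 4.85 CPM and was not called.

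HOX genes, which set position along the body and limb, were called in the HOXC and HOXA clusters. All 4 tested genes of the HOXC cluster were called lower in DPs, 2 of 9 tested HOXA genes were called higher, and none of 5 HOXB or 5 HOXD genes was called. The tested HOXC genes had 0 to 6 reads in DPs, so they passed the filter through the MH libraries and could hardly be called higher. HOXC5, HOXC11, HOXC12 and HOXC13 were not tested, so the count of 4 is no result about the cluster. HOXC9 had 0, 0.0934 and 0 CPM in DPs and 6.09, 10.8 and 11.4 CPM in MHs, or 2 against 545 reads, a ratio of 290 after scaling (95% counting interval 79.9 to 2400). HOXC8 had 3 reads in DPs against 116 in MHs, a ratio of 41.2 (13.7 to 203). HOXC10 had 0 reads in DPs and 222 in MHs, which is at least 78.8-fold lower against a floor of 3 reads over the group. These intervals cover counting error only. HOXA11 was at 7.5, 4.2 and 5.35 CPM in DPs and 0.087, 1.54 and 1.78 CPM in MHs (2.29 ± 0.82, adjusted p = 0.147), and HOXA11 was called by the unadjusted threshold only.

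The juvenile libraries of the same tissue gave the limb genes other values. In juvenile DPs, TBX5 was at 18, 1.67 and 0.323 CPM and PITX1 at 0.157, 6.77 and 5.81 CPM, so that DPLBJ1 resembled the adult DPs and the other two the MHs. In juvenile MHs, TBX5 was at 0.224, 0.134 and 0.698 CPM and PITX1 at 12.9, 14.2 and 10.3 CPM. Since the labels do not give the limb, breed and limb position cannot be told apart in the adult comparison. The part of limb position in the other results was not tested.

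**Figure D4:**
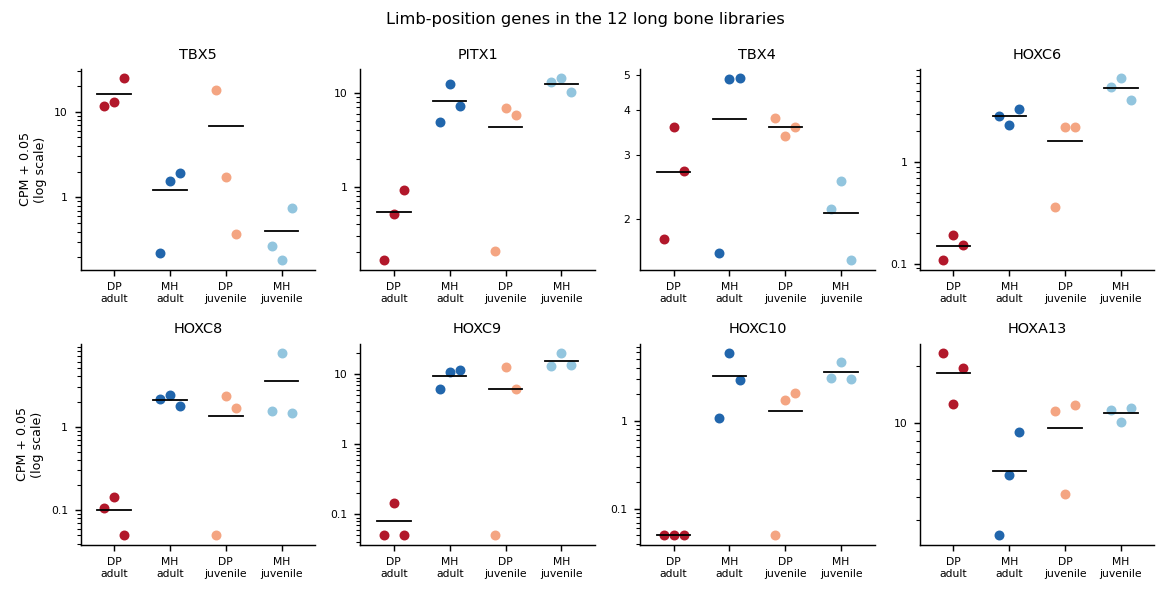
CPM plus 0.05 (log axis) of limb-position genes in the 12 long bone libraries, with 1 point per library and a bar at each group mean. TBX5 is at 11.5 to 24.3 CPM in the adult DPs and at most 1.85 CPM in the adult MHs, PITX1 and the HOXC genes show the opposite order, and DPLBJ2 and DPLBJ3 lie with the MH libraries.

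Of 44 tested WNT ligands, receptors and antagonists, 11 were called higher and 2 lower (median 0.58), and 4 had an adjusted p under 0.05. WNT4, a ligand made by cartilage and bone cells, was at 6.87, 3.83 and 19.1 CPM in DPs and 0.261, 0.376 and 0.428 CPM in MHs (4.76 ± 0.74, adjusted p = 0.0333). ROR2, a receptor for WNT5A, was at 28.6, 25.5 and 37.9 CPM against 7.22, 11.6 and 6.34 CPM (1.86 ± 0.34, adjusted p = 0.0422). The list also held PLCB2 and PLCG2, phospholipases that blood cells express, which were higher by 2.94 ± 0.55 and 1.50 ± 0.26. Without DPLBA3 the WNT list came to 7 higher and 3 lower.

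Of 18 tested Toll-like receptors and adaptors, 8 were higher and 1 lower. TLR8, a sensor of single-stranded RNA in myeloid cells, was at 13.4, 8.6 and 8.9 CPM against 2.26, 2.39 and 2.92 CPM (2.02 ± 0.39, adjusted p = 0.0441). MYD88, the adaptor most of these receptors share, was at 20, 14.4 and 10.7 CPM against 4.7, 6.22 and 3.56 CPM (1.64 ± 0.39, adjusted p = 0.0707). Of 49 tested matrix metalloproteinases, ADAM and ADAMTS proteases and their inhibitors, 13 were higher and 3 lower. MMP25, another neutrophil protease, stood at 4.02 ± 0.51 (adjusted p = 0.0223), while the cartilage aggrecanase ADAMTS5 was lower at 10.4, 12.5 and 5.14 CPM against 24.9, 51.2 and 50.2 CPM (-2.17 ± 0.44, adjusted p = 0.0511).

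The growth hormone and IGF axis had members called in both directions. Of 25 tested members 4 were called higher in DPs (IGFBP2, PTPN6, IGF2BP3 and IGFBP4) and 4 lower (STC1, ATF3, MRAS and IGF1R), with a median of -0.261. Each count was 16% of the list, against 10.3% of all genes tested called higher and 8.03% lower. GHR, the growth hormone receptor, was at 234, 59.2 and 96.9 CPM in DPs and 136, 268 and 290 CPM in MHs. DPLBA1 lay above MHLBA1, the groups overlapped, and the log2 fold change of -0.83 ± 0.54 did not pass the test (adjusted p = 0.38 in edgeR's test). Without DPLBA1 the GHR difference was -1.55 and GHR was called lower in DPs. In the juvenile libraries GHR was called lower in DPs (-1.44, adjusted p = 0.154), at 185, 106 and 68.3 CPM against 346, 299.5 and 332 CPM.

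IGFBP2, a carrier protein of the insulin-like growth factors, was at 329, 140 and 308 CPM in DPs and at 11.5, 34.2 and 46.1 CPM in MHs (3.08 ± 0.57, adjusted p = 0.0422). STC1, a secreted glycoprotein, was at 3.66, 11.7 and 6.17 CPM in DPs and at 33.6, 94.8 and 56.3 CPM in MHs (-3.10 ± 0.55, adjusted p = 0.0393). In neither gene did the breeds overlap. PTPN6, a phosphatase that damps cytokine receptors and that blood cells express, was at 108, 89.1 and 145 CPM against 49.2, 36.9 and 20.4 CPM (1.69 ± 0.37, adjusted p = 0.0623).

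IGF1R, the receptor of IGF1, was called lower at 25.4, 44.1 and 40.6 CPM against 363, 53.9 and 65.7 CPM, with MHLBA1 far above the rest. Without MHLBA1 its log2 fold change moved from -2.13 to -0.70 and the call was lost. The IGF1R call was also lost without DPLBA1, without DPLBA3 and with the replicate number as a block. MRAS, a small GTPase, was at 79.9, 43.8 and 102 CPM in DPs and 87.5, 248 and 322 CPM in MHs (-1.54 ± 0.52, adjusted p = 0.13), with MHLBA1 among the DP values, and its call was lost without DPLBA1, without DPLBA2, without MHLBA3 and in both limma fits. ATF3, a stress-induced transcription factor, was at 8.47, 7.89 and 4.42 CPM against 44.9, 21.3 and 18.1 CPM (-2.02 ± 0.45, adjusted p = 0.0641). IGF1 itself, at 17.2, 24.9 and 7.15 CPM against 19.2, 29.5 and 21.9 CPM, was not called. The same held for IGFBP3, JAK2, STAT5A, STAT5B and SOCS3, whose log2 fold changes ran from -0.93 to 0.67.

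Of 22 tested growth plate signals, 7 were higher and 1 lower. RUNX3, a transcription factor of cartilage and blood cells, was at 13.8, 7.19 and 19.1 CPM against 2.44, 3.76 and 2.42 CPM (2.21 ± 0.47, adjusted p = 0.0561). NPR3, the clearance receptor for natriuretic peptides, was the member called lower, at 10, 13.3 and 5.61 CPM against 40.5, 19.6 and 42.8 CPM (-1.83 ± 0.44, adjusted p = 0.0707). NPR2, the receptor through which C-type natriuretic peptide lengthens bones, had a log2 fold change of -0.14 ± 0.24. Without DPLBA3, 3 members of this list were higher and 1 lower.

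Of 11 tested genes at loci linked to horse height, 2 were called, both higher in DPs (18.2%, against 10.3% of all genes tested). The list median was -0.385, and 8 of the 11 log2 fold changes were negative. HMGA2, a chromatin protein, was at 1.26, 4.62 and 1.29 CPM in DPs and 0.522, 0.0684 and 0.214 CPM in MHs (3.26 ± 0.93, adjusted p = 0.0963). NCAPG, a condensin subunit needed in mitosis, was at 24.9, 56.5 and 16.6 CPM against 8.53, 7.45 and 8.13 CPM (2.02 ± 0.47, adjusted p = 0.0672), in the same direction as the cell cycle genes. LCORL, its neighbour at the height locus, was at 10.8, 52.1 and 13.5 CPM against 43.5, 35 and 88.6 CPM and was not called. TBX3 and ZFAT were not called either, at -0.39 ± 0.70 and -0.45 ± 0.35. The plot of growth genes shows each library.

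**Figure D5:**
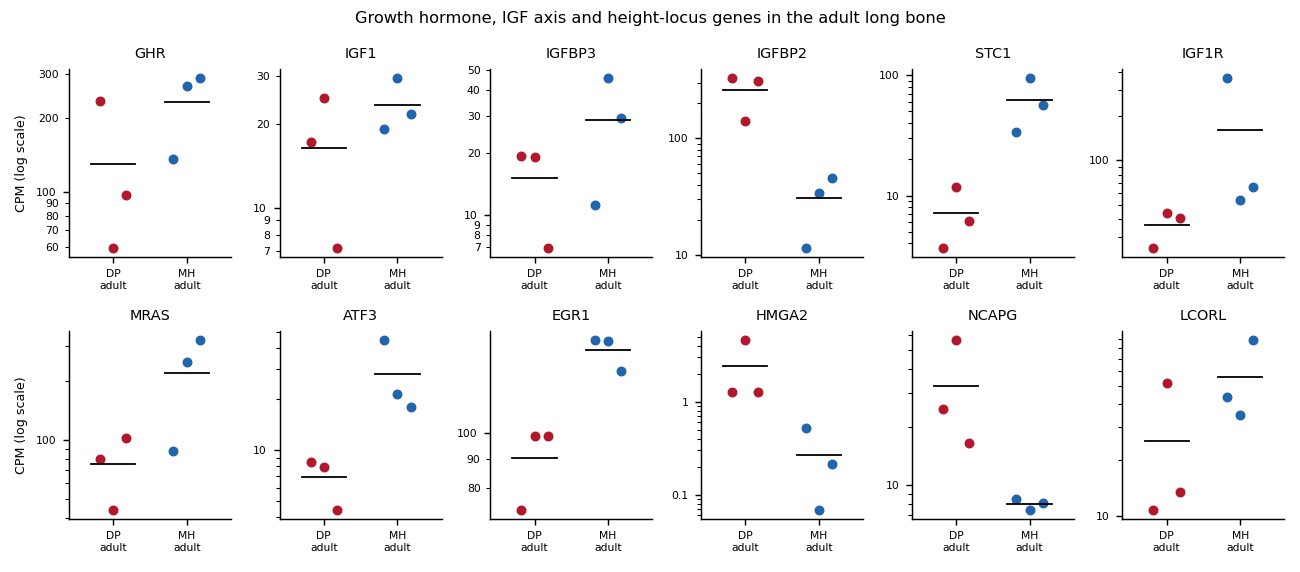
CPM (log axis) of genes of the growth hormone and IGF axis and of height loci in each adult long bone library, with 1 point per library and a bar at each breed mean. IGFBP2 and STC1 separate the breeds in opposite directions, the GHR points overlap, and the IGF1R mean of the MHs is raised by MHLBA1 at 363 CPM.

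Among the genes lower in DPs, ordered by the same rule as the highest genes, HNF4A and DMGDH were among the first. Both are genes of liver, kidney or pancreas, and they lay highest in MHLBA1, which held pancreas transcripts. HNF4A had 1 read in DPs and 428 in MHs (ratio 456, 81.4 to 18000), of which most were in MHLBA1 at 27.8 CPM. DMGDH was at 0.0572, 0.28 and 0.103 CPM in DPs and 32.1, 14.2 and 5.35 CPM in MHs (-6.77 ± 0.91, adjusted p = 0.0232). Also among the lowest were NIPAL2, SLC10A6, STC1, STX1A, ZBTB16, ADRA1A, NTN1, CLEC4A and ADAMTS1.

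ZBTB16, the transcriptional repressor PLZF, which glucocorticoids induce, was at 90.7, 72.4 and 76.8 CPM in DPs and at 1033, 540 and 415 CPM in MHs (-3.05 ± 0.42, adjusted p = 0.0232). NTN1, the guidance cue netrin-1, was at 4.01, 5.84 and 4.32 CPM against 45.4, 25.8 and 39.8 CPM (-2.97 ± 0.34, adjusted p = 0.0215). ADAMTS1, a secreted protease that cuts aggrecan and versican, was at 34.8, 47.1 and 28.9 CPM against 161, 389 and 237 CPM (-2.83 ± 0.40, adjusted p = 0.0249). In these genes the highest DP library lay below the lowest MH library, and each of the MH libraries was high.

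Of 24 tested immediate early and stress response genes, 6 were called lower in DPs and 1 higher. JUN, a subunit of the AP-1 transcription factor, was at 56.5, 45.5 and 51.1 CPM in DPs and 164, 244 and 152 CPM in MHs (-1.88 ± 0.28, adjusted p = 0.0301). DUSP1, a phosphatase that switches off MAP kinases, was at 45.7, 26.1 and 26.8 CPM against 66.5, 113 and 75.5 CPM (-1.37 ± 0.34, adjusted p = 0.0739). FOSB was at 3.83, 4.95 and 2.88 CPM against 170, 20.6 and 4.49 CPM, with most of its MH level in MHLBA1.

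Of 29 tested heat shock proteins and chaperones, 6 were lower and none higher, and without any 1 of DPLBA1, DPLBA2, DPLBA3 and MHLBA1 2 or 3 were lower. HSP90AA1, an inducible cytosolic chaperone, was at 1766, 1268 and 809 CPM in DPs and 13688, 3426 and 3759 CPM in MHs (-2.44 ± 0.71, adjusted p = 0.101). Of 24 tested sarcomere genes of striated muscle, 8 were lower and none higher, and without MHLBA3 none was lower and 1 higher. TTN, which encodes titin, was at 2.8, 5.65 and 2.31 CPM in DPs and 5.48, 8.68 and 91.4 CPM in MHs. The circadian clock list had 2 of 18 genes higher (11.1%, against 10.3% of all genes tested) and 4 lower (22.2%, against 8.03%). Without DPLBA3 it had none in either direction.

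Of 31 tested genes of marrow fat cells, 3 were called lower in DPs and none higher (median -0.673). The share called lower, 9.68%, was close to the 8.03% of all genes tested. CIDEA, a lipid droplet protein, was at 21.1, 17.7 and 12.3 CPM in DPs and 11.2, 72.1 and 101 CPM in MHs (-1.85 ± 0.68, adjusted p = 0.153), so that MHLBA1 lay below the DPs. FABP4, the fatty acid carrier of fat cells, was at 4498, 1640.7 and 3665 CPM against 815, 4501 and 5669 CPM and was not called. Without MHLBA1, 12 fat cell genes were called lower and none higher (median -1.07). Without any 1 of DPLBA1, DPLBA3, MHLBA2 and MHLBA3, 1 was called lower, and without MHLBA3 1 was also called higher and the median was -0.02. In the juvenile libraries 18 of 31 were lower and 2 higher. PCK1, also a gene of liver and kidney, was at 1.72, 0.28 and 0.0514 CPM in DPs and 1.22, 52.9 and 23.3 CPM in MHs.

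Vessel and stroma genes had mixed directions. Of 21 tested endothelial genes, 4 were higher and 1 lower, and without MHLBA1 3 were higher and 5 lower. TIE1, a receptor of vessel endothelium, was at 39.3, 53.9 and 56.8 CPM in DPs and 201, 111 and 149 CPM in MHs (-1.62 ± 0.31, adjusted p = 0.0434). STAB2, a scavenger receptor of marrow sinusoids, was at 16.2, 29.7 and 31 CPM against 8.01, 9.09 and 9.55 CPM (1.53 ± 0.34, adjusted p = 0.0617). Of 12 tested marrow stroma genes 2 were higher, THY1 and CXCL12, and 1 was lower, LEPR. CXCL12, the chemokine that holds blood stem cells in the marrow, was at 165, 105 and 132 CPM against 74.7, 51.6 and 66.8 CPM (1.06 ± 0.28, adjusted p = 0.0857). LEPR, the leptin receptor of perivascular stroma, was at 38.1, 39.1 and 22 CPM against 34.9, 131 and 165 CPM (-1.74 ± 0.55, adjusted p = 0.116). The call of CXCL12 was lost without DPLBA1, without MHLBA2 and with MHLBA3 alone, and that of LEPR without DPLBA3 and in both limma fits.

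None of 63 tested cytosolic ribosomal protein genes, of 56 nuclear or of 13 mitochondrial genes of oxidative phosphorylation was called, with medians of 0.13, 0.03 and -0.15. RPS6 had a log2 fold change of 0.03 ± 0.61 and ATP5A1 of -0.02 ± 0.37. The smooth muscle and pericyte list had 2 of 13 genes lower and none higher, with LMOD1, an actin nucleator of smooth muscle, at 135, 47.5 and 70.2 CPM against 150, 740 and 246 CPM. Of 33 interferon response genes 5 were higher (15.2%, against 10.3% of all genes tested) and 1 lower. Without MHLBA1 2 were higher and 3 lower.

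The same breeds were compared in the juvenile long bone, from other animals. There 1146 of 13755 genes tested (8.33%) were called higher in DPs and 753 (5.47%) lower, and 0 had an adjusted p under 0.05. Of the 1450 genes higher in adult DPs, 1358 were tested in juveniles, and 619 were called higher there, which is 42.7% of the adult list and 54% of the juvenile list, while 2 were called lower. Of the 1130 genes lower in adult DPs, 315 were called lower in juveniles (27.9% of the adult list and 41.8% of the juvenile list) and 5 higher. In the adult pituitary, where 252 of 14376 genes (1.75%) were higher in DPs and 169 (1.18%) lower, 43 of the 1450 were higher and 14 lower (2.97% of the adult long bone list), and 31 of the 1130 were lower and 18 higher (2.74%).

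Neutrophil genes were called higher in juvenile DPs for 23 of 26 members (median 4.38), cell cycle genes for 37 of 41 (3.74) and cartilage genes for 16 of 19 (4.59). MMP8 was at 0.392, 167 and 47 CPM in DPLBJ1 to DPLBJ3 and at 2.16, 4.95 and 2.09 CPM in the juvenile MHs, so that DPLBJ1 lay below all 3. COL2A1 was at 5.96, 4851 and 11883 CPM against 1.79, 6.29 and 3.21 CPM. Monocyte and macrophage genes were called higher for 2 of 21 members in juveniles (median 0.40), against 14 of 23 in adults.

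The difference between the stages was itself tested. The interaction of breed and stage over the 12 long bone libraries gave 0 of 14735 genes (0%) with an adjusted p under 0.05 in edgeR's test, with 660 genes at an unadjusted p under 0.05, and 14 genes with an adjusted p under 0.05 in DESeq2, among them MERTK, CDH1 and CLEC3A. These 3 were named after their values were seen, and without DPLBJ1 edgeR gave 2 genes. In simulated counts for this test, 200 of 14530 genes had an interaction of 2 on the log2 scale. Only 2 of those and 3 unchanged genes reached an adjusted p under 0.05 in edgeR's test. The count of 0 therefore cannot show that the breed difference was the same at both stages. CD4, called higher in adult but not in juvenile DPs, was at 11.7, 10.3 and 22.2 CPM in juvenile DPs and 14.1, 11.8 and 32.6 CPM in juvenile MHs (interaction adjusted p = 0.971). For GHR the interaction was 0.67 on the log2 scale (adjusted p = 0.981).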

How the data were processed

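Long bone epiphysis and pituitary RNA of DPs and MHs was sequenced from rRNA-depleted libraries, per the labels with TopHat2, bcl2fastq and edgeR among the tools. The libraries were directional. The study's methods state EquCab 3.0 and name Salmon, which gives transcript levels, where the labels name TopHat2. Which tool made the counts, and with what strand setting, is not given in the sources used here, so overlapping and antisense genes cannot be told apart. The authors deposited whole-number read counts per gene for 24 libraries, and deposited RPKM (reads per kilobase of gene, scaled to library total). The tables pair Ensembl gene identifiers with symbols and descriptions, 8077 of 24232 genes carry no symbol, and positions are not given. Organs, limb genes, members and gene lists were chosen with earlier results of these data known.

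The counts of the 6 adult long bone libraries were filtered with filterByExpr (minimum count 10), scaled with TMM factors (0.768 to 1.21) and tested with edgeR 4.0.16 (R 4.3.3) by its quasi-likelihood test, breed being the only term. CPM were scaled by the same factors, and organ sums are CPM of all reads without TMM factors. SE is the log2 fold change divided by the square root of F. Juvenile long bone and adult pituitary were fitted alone, the interaction over all 12 long bone libraries. Lists of collagens, proteases, ribosomal proteins and oxidative phosphorylation subunits were taken by symbol pattern. Named genes were those the study turned on, the 12 highest and 12 lowest log2 fold changes (adjusted p under 0.05, no overlap, mean of at least 10 CPM), up to 4 called and 2 not called members of each list, and the 5 highest mean RPKM in each breed, and some of them are not reported here. In simulated counts with 200 of 13862 genes changed 4-fold (log2 of 2), 177 (88.5%) were called in the right direction, and 4.33% of unchanged genes had P under 0.05. An adjusted p under 0.05 was reached by 52 changed and 5 unchanged genes. Gene reads came to 17295627, 21885168 and 19515740 in DPs and 19433343, 27007342 and 11616518 in MHs. Alternatives were other scalings, no filter, DESeq2 1.42.0, edgeR's exact test, limma 3.58.1 on log2(RPKM + 1) and log2(RPKM + 0.1), all 12 long bone libraries in the fit, a replicate block, leaving out each library and, chosen after seeing the data, leaving out 182 organ genes or keeping only MHLBA3 on the MH side.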

Additional observations from a re-analysis of the deposited data

How the results depend on the processing

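Under every setting run, 1668 to 3273 genes were called, against 2580 as reported, and leaving out each library in turn gave 1924 (without DPLBA3) to 2956 (without MHLBA2). Only limma on log2(RPKM + 1), with 1668, moved the count by over 1.5 times, and 71.5% of its calls were higher in DPs, as were 68% with log2(RPKM + 0.1), against 56.2% as reported. The count of adjusted p under 0.05 depended more on the setting: it was 315 as reported, 1837 in DESeq2, 1502 in edgeR's exact test and 18 with all 12 long bone libraries in the fit. Leaving out each library gave 0 to 712: it was 0 without DPLBA1, without DPLBA3 and without MHLBA2, 4 without DPLBA2, 40 without MHLBA3 and 712 without MHLBA1. It was 369 without the organ genes and 335 with MHLBA3 as the lone MH library, whose spread was then assumed to be like that of the DPs. The causes were not tested. GHR stayed on its side of the threshold except without DPLBA1, and its log2 fold change ran from -1.55 (without DPLBA1) to -0.464 (without DPLBA2) as each library was left out. The interaction count of 0 became 14 in DESeq2, and leaving out each of the 12 libraries gave 0 to 2, the 2 without DPLBJ1. Of 112 genes followed through 2016 values, 1920 kept their side of the threshold, 43 lost and 53 gained a call, and 0 changed direction with a call. All 95 called genes among them kept their direction, and 80 never lost the call.

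Same-numbered DP and MH libraries did not deviate together (r of -0.0264, 0.00391 and -0.0698), so the numbers do not pair the samples. With the replicate number as a block 2265 genes were called, and 106 had an adjusted p under 0.05.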

Other observations

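Levels between genes were compared only as RPKM. The 5 highest mean RPKM in DPs belonged to FAM117A, SPP1, MT-CO1, RPS3A and RPL35. In MHs, MT-CO1 and MT-ATP8 were among the 5 highest, and the other 3 were genes without a symbol that were high in MHLBA1 alone, 2 of them described in the table as a chymotrypsinogen and a chymotrypsin-like elastase.

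Some transcription factors were far higher in MHLBA1 than in the other adult long bone libraries. MEIS1, a partner of HOX proteins, was at 383 CPM in MHLBA1 and at 2.37 to 8.34 CPM in the other adult long bone libraries. MEIS2 was at 139.6, 6.63 and 16.3 CPM in MHLBA1 to MHLBA3 and at 0.629, 2.57 and 0.309 CPM in DPs. Its groups did not overlap, and without MHLBA1 its log2 fold change was -3.26. XBP1, a factor of secretory cells, was at 630 CPM in MHLBA1 and at 103 to 168 CPM in the others.

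Summed reads of 8 pituitary hormone genes came to 68.8 CPM of all reads in DPLBA3 and to at most 7.11 in each other adult long bone library. Of the 2 tested, 1 was called higher in DPs, PRL, at 2.31, 0.0914 and 9.02 CPM of all reads in DPLBA1 to DPLBA3.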
